A study of Paxillus involutus with 12 samples.

Results

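In mycelium of the ectomycorrhizal fungus Paxillus involutus deprived of carbon, 120 of 12214 array sequences (0.982%) had a lower mean at day 6 or day 8 than at day 2 and a higher mean at day 13 than at day 2. They were chosen on these means. The day 2 mean had to exceed the lower of the day 6 and day 8 means by at least 0.4 on the log2 scale, and the day 13 mean had to exceed the day 2 mean by at least 0.5. The falls and rises of these sequences are therefore given as descriptions, and nothing is read from a test of them. All values are log2 expression values from RMA, a procedure that brings the arrays to a common distribution, so a difference between days is a difference in standing among the sequences.

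Every sample was mycelium of strain ATCC 200175. The fungus was kept as a pure culture on glass beads, in Minimum Melin Norkrans medium given ammonium (C/N ratio 3), and had before that been cultured for 10 days and held for 24 h without nitrogen. Mycelium was taken at days 2, 6, 8 and 13, with 3 arrays per day, each from a pool of 2 cultures, on 1 NimbleGen 12-plex chip. By the labels, the groups differ in the harvest day and in their array positions on the chip. No carbon-fed cultures of the same ages are among the samples, so starvation and culture age cannot be told apart. The medians of the 12 arrays lay between 11.35 and 11.38, the random-sequence control between 4.49 and 4.70, and r between replicate arrays across sequences was 0.989 to 0.998. The descriptions of the day 6 and day 8 samples each carry a pair of position numbers that disagree. The titles were followed, and the choice of the 120 sequences does not depend on it, since the rule treats days 6 and 8 alike.

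An ectomycorrhizal fungus receives sugars from the roots of its host tree, and a mycelium cut off from sugar has to live on what it holds. Starved fungi are known to digest parts of their own cytoplasm in the vacuole, a process called autophagy, and to burn the released amino acids for energy, which frees ammonium. Older parts of a mycelium can be emptied in this way while the growing tips are kept supplied. The title of the series names autophagy and recycling of nutrients as its subject. Which of the 120 sequences take part in such processes cannot be said here. The files give sequences by number only, the gene information column held 0 entries, and 0 of the 12214 IDs matched any of the 18033 genes annotated in the RefSeq table for this strain.

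The combination of a middle fall with a later rise was uncommon next to either change alone. Across the array, 2766 sequences (22.6%) had a day 6 or day 8 mean at least 0.4 below day 2, and 2594 (21.2%) stood at least 0.5 above day 2 at day 13. The 120 members made up 4.34% of the former and 4.63% of the latter. Of the 2766 with a lower middle mean, 1570 (56.8%) were at least 0.5 below day 2 at day 13, and 1076 (38.9%) were within 0.5 of it. Of the 2594 that were higher at day 13, 1984 had neither middle mean below day 2. The mirror image, a middle rise of at least 0.4 followed by a day 13 mean at least 0.5 below day 2, was met by 137 sequences.

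**Figure D1:**
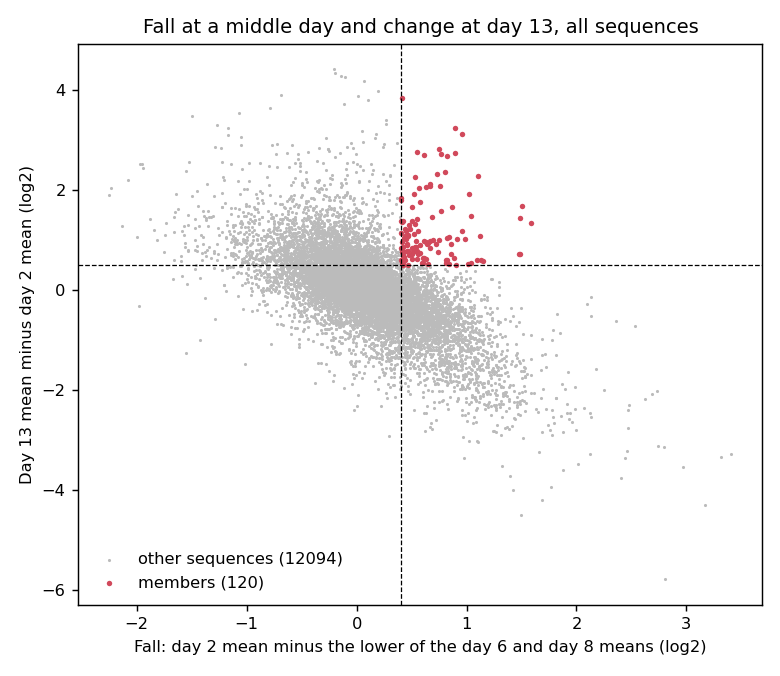
Each point is a sequence. The x axis is the day 2 mean minus the lower of the day 6 and day 8 means, the y axis the day 13 mean minus the day 2 mean, both in log2 units. Dashed lines mark the limits of 0.4 and 0.5. The 120 members lie in the upper right corner, on the edge of a cloud of sequences that slopes from upper left to lower right.

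Taken over the members, the level was below the start at both middle days and above it at day 13. The median level of the members was 10.89 (day 2), 10.65 (day 6), 10.29 (day 8) and 12.33 (day 13). The order of the middle values holds for the titled days and turns if days 6 and 8 are exchanged. Measured against each member's own day 2 mean, the median member read -0.40, -0.25 and -0.38 on the 3 day 6 arrays and -0.58, -0.58 and -0.54 on the 3 day 8 arrays. On the 3 day 13 arrays it read 0.88, 0.98 and 1.05. The day 2 arrays read -0.10, 0.15 and -0.02. All 6 middle arrays thus lay below the day 2 arrays and all 3 day 13 arrays above them. The median over all 12214 sequences moved between -0.03 and 0.04 on the same scale. In rank among all sequences, the median member was at percentile 39.3 on day 2, 34.1 on day 6, 27.4 on day 8 and 73.1 on day 13.

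**Figure D2:**
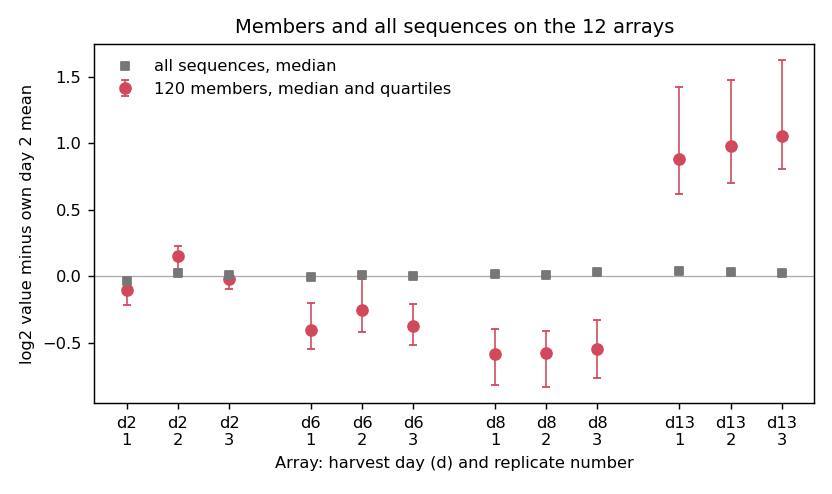
Points show, for each of the 12 arrays, the median log2 value of the 120 members minus each member's own day 2 mean, with bars from the lower to the upper quartile. Squares show the same median over all 12214 sequences. The member medians lie between -0.25 and -0.58 at days 6 and 8 and between 0.88 and 1.05 at day 13, while the squares stay near 0.

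The median fall from day 2 to the lowest middle day was 0.58 on the log2 scale, 1.49-fold, with a range of 0.40 to 1.58. The median excess of day 13 over day 2 was 0.98, 1.97-fold, with a range of 0.50 to 3.85. From the lowest middle day to day 13 the median member climbed 3.04-fold, and the largest climb was 19.2-fold. For 99 members the excess at day 13 was larger than the fall, and for 21 it was smaller. Spearman's rho between fall and later excess across the 120 members was 0.1, a description across sequences that share the same arrays and the same day 2 mean in both quantities.

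Falls were mostly modest and rises larger. The fall was at least 2-fold in 14 members, where 4.18% of all sequences had such a fall. Day 13 exceeded day 2 at least 2-fold in 57 members (7.51% of all sequences), at least 4-fold in 18 (1.2%) and at least 8-fold in 3 (0.213%). From the lowest middle day to day 13, 116 members gained at least 2-fold (5.33%) and 36 at least 4-fold (0.958%). These shares of members follow in part from the limits of the rule. Day 13 was the highest of the 4 days in all 120. The rule itself fixes this for the 103 members with both middle means below day 2. The share of all sequences was not counted, so nothing is read from this count.

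In limma (adjusted p under 0.05 over all 12214 sequences), the fall to a member's own lowest middle day was called in 111 of 120 and the excess of day 13 over day 2 in 118. The excess of day 13 over the lowest middle day was called in 120. Among all sequences, the same criteria were met by 31.8%, 34.4% and 34.4%. All 3 differences together were called in 110 members and in 3.01% of all sequences. Counted by arrays without overlap, the lowest middle day lay wholly below day 2 in 111 members (36.7% of all sequences). Day 13 lay wholly above day 2 in 117 (32.5%) and wholly above the lowest middle day in 119 (38.1%). In 108 members both the fall and the excess over day 2 were without overlap (4.2%). The rule used these contrasts, so the counts say how the chosen means stand to the spread between arrays and no more. Against a minimum fold of 1.5 in the test, which is stricter by construction, 4 members kept all 3 differences. The share of all sequences under this stricter test was not counted.

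The members differed in when they were low. Those at least 0.4 below day 2 at both middle days numbered 31, those so at day 8 alone 65, and those so at day 6 alone 24. The lowest mean fell on day 8 in 89 members and on day 6 in 31. With the day 6 and day 8 samples exchanged, the last 2 classes and these counts change places. Both middle means were below day 2 in 103 members.

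**Figure D3:**
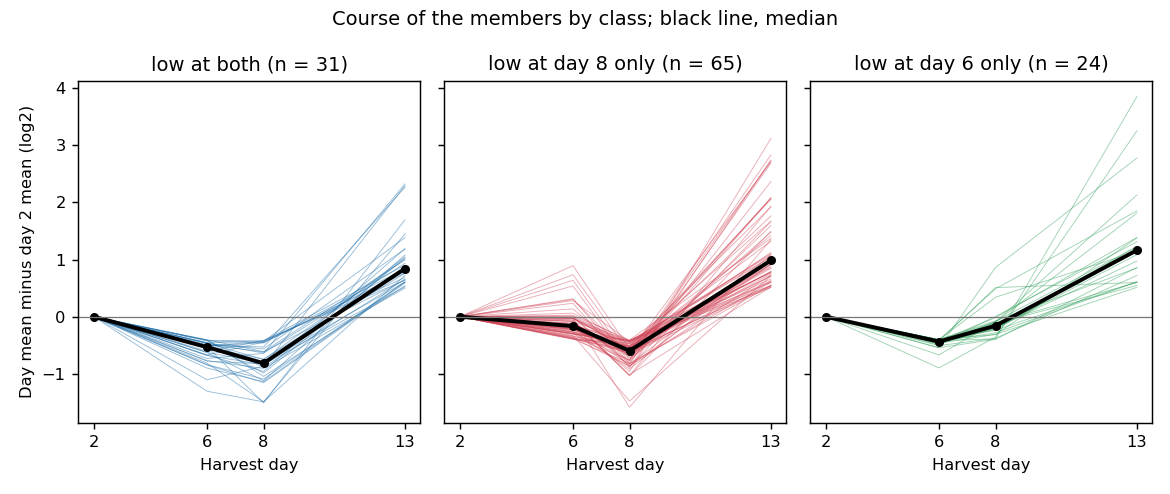
Each thin line is a member, drawn as its day mean minus its day 2 mean (log2) against the harvest day, in the 3 classes. The black line is the median. The median is lowest at day 8 in the classes low at both days (-0.81) and at day 8 only (-0.60), and at day 6 in the class low at day 6 only (-0.44). It ends at 0.84, 0.99 and 1.16.

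In the class low at both days, the median member was at -0.53 at day 6 and -0.81 at day 8 relative to day 2. The class requires a mean at least 0.4 below day 2 on each of these days. The share of the fall reached by day 6 is therefore partly set by the choice, and nothing is read from it. The values of days 6 and 8 change places if their samples are exchanged. At day 13 the median member stood at 0.84, 1.79-fold over day 2. All 3 differences, which the rule used, were called in 30 of these 31 members (3.01% of all sequences).

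paxillus_490 had the deepest fall in the class and ended among the most abundant sequences on the array. It read 13.23, 13.37 and 13.47 at day 2, 12.94, 13.16 and 12.39 at day 6, 11.91, 11.71 and 11.92 at day 8, and 15.21, 14.97 and 14.96 at day 13. The day 8 arrays lie below all others and the day 13 arrays above all others, with no overlap. Its day means were 13.35 ± 0.12 (SD, n = 3), 12.83 ± 0.40, 11.85 ± 0.11 and 15.05 ± 0.14, a fall of 2.85-fold to day 8 and an excess of 3.24-fold over day 2 at day 13.

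paxillus_11911 was already low at day 6 and still low at day 8. It read 10.08, 10.82 and 10.24 at day 2, 9.20, 9.39 and 9.24 at day 6, 9.43, 9.40 and 9.71 at day 8, and 12.58, 12.65 and 12.79 at day 13. Its 6 middle values all lie below the day 2 values, and its day 13 values are closer to each other than those of day 2. The fall to day 6 was 2.15-fold and the climb from day 6 to day 13 was 10.5-fold. It and paxillus_490 are among 7 members in which fall and later excess both reached 2-fold (0.0573% of all sequences, the same 7). The others are paxillus_1212, paxillus_3641, paxillus_7314, paxillus_10151 and paxillus_12137.

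In paxillus_12137 the late rise differed widely between cultures. It read 10.04, 10.44 and 10.26 at day 2, 9.55, 9.19 and 9.55 at day 6, 8.82, 8.64 and 8.81 at day 8, and 10.71, 11.83 and 12.54 at day 13. Each harvest lies apart from the others, but the lowest day 13 array exceeds the highest day 2 array by little, and the day 13 SD was 0.93.

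The class low at day 8 alone held more members than the other classes together. Its median was at -0.16 at day 6 and -0.60 at day 8, and at 0.99 at day 13, 1.98-fold over day 2. All 3 differences were called in 61 of 65 (3.01% of all sequences). paxillus_10151 had the deepest fall of all 120. It read 13.33, 13.38 and 12.96 at day 2, 13.12, 13.66 and 12.83 at day 6, 11.84, 11.56 and 11.52 at day 8, and 14.63, 14.65 and 14.43 at day 13. Days 2 and 6 overlap in full, day 8 lies below both and day 13 above. The mean dropped 3.00-fold from day 2 to day 8 and ended 2.55-fold above day 2.

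**Figure D4:**
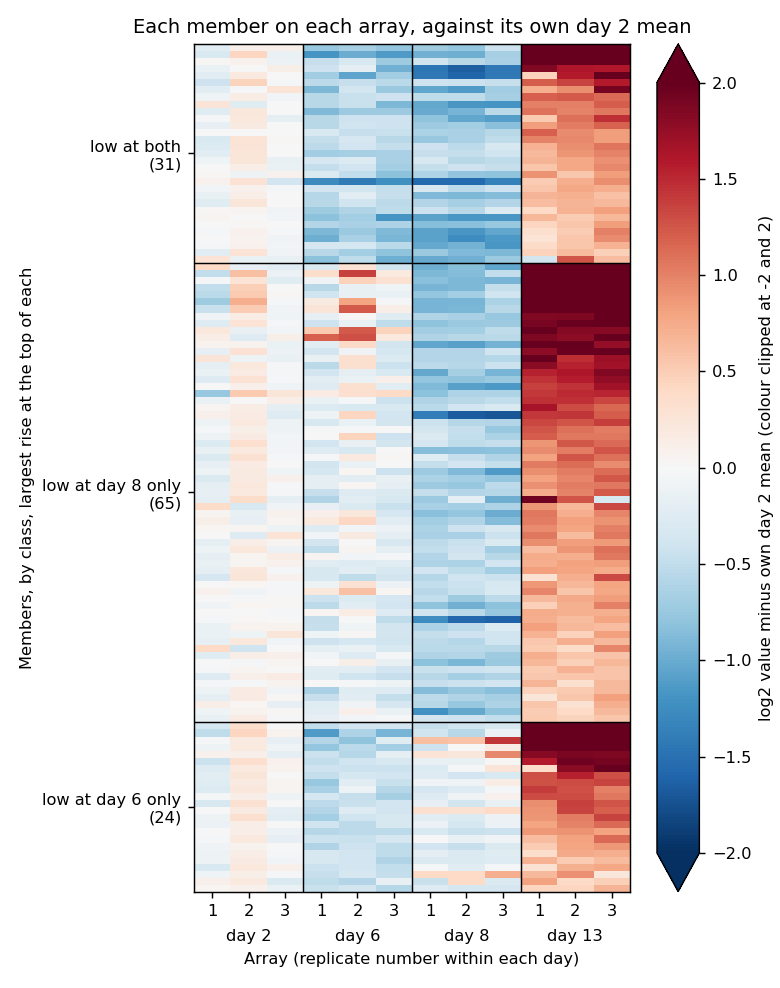
Rows are the 120 members by class, columns the 12 arrays. Colour gives the log2 value minus the member's own day 2 mean, blue for lower and red for higher, clipped at -2 and 2. Day 8 is blue throughout the 2 upper classes, day 6 is blue in the class low at both days and in the class low at day 6 only, and day 13 is red in nearly every cell. Some members low at day 8 only are red at day 6, most strongly on array 2.

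Within this class, 12 members had a day 6 mean above that of day 2, by 0.01 to 0.89. Days 6 and 8 are as titled here. Among them, 11 had all 3 day 8 arrays below all 3 day 6 arrays (26.4% of all sequences), and 6 ended at least 4-fold above day 2 (1.2% of all sequences). The 12 were chosen with day 6 above day 2, day 8 at least 0.4 below it and day 13 at least 0.5 above it. Both counts follow in part from this choice, and nothing is read from them. The day 6 mean of 2 members, paxillus_3637 and paxillus_8399, was called above day 2 (23.0% of all sequences were).

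paxillus_8399 read 10.45, 10.06 and 10.43 at day 2, 11.50, 11.61 and 10.51 at day 6, 9.71, 9.75 and 9.78 at day 8, and 12.18, 12.09 and 12.82 at day 13. At day 6, array 3 lies close to day 2 and the other arrays lie well above it, while the 3 day 8 arrays are nearly the same. The fall of paxillus_8399 to day 8 did not pass the test. paxillus_3637 read 10.73, 10.38 and 10.47 at day 2, 11.06, 11.76 and 10.97 at day 6, 9.83, 9.85 and 10.01 at day 8, and 13.09, 12.36 and 12.35 at day 13. Here no 2 harvests overlap.

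Their scatter at day 6 was wide and had a common direction. The range over the 3 day 6 arrays had a median of 0.706 on the log2 scale over the 12. Day 6 array 2 was the highest in 11 of them, in 78 of all members and in 34.4% of all sequences. The 12 were picked for a day 6 mean above day 2, which a high array 2 favours. Nothing is therefore read from the 11. The median SD of the 12 was 0.369 at day 6 and 0.129 at day 8. paxillus_11828 read 8.81, 9.90 and 9.17 at day 2, 9.64, 10.66 and 9.50 at day 6, 8.40, 8.43 and 8.81 at day 8, and 11.91, 12.04 and 12.43 at day 13. Days 2 and 6 overlap in it, its fall to day 8 did not pass the test, and its day 13 arrays lie far above the rest.

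The class low at day 6 alone had the smallest falls and the largest late excess on the median. Its median was at -0.44 at day 6, -0.16 at day 8 and 1.16 at day 13, 2.24-fold over day 2. All 3 differences were called in 19 of 24 (3.01% of all sequences). The 2 members with the largest excess at day 13, paxillus_9608 and paxillus_7617, belong here.

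paxillus_9608 read 8.84, 9.54 and 9.18 at day 2, 8.70, 8.80 and 8.82 at day 6, 8.72, 8.79 and 8.87 at day 8, and 12.75, 12.98 and 13.37 at day 13. Its lowest day 2 value is level with days 6 and 8, whose 6 values lie close together, and its day 2 mean of 9.18 against 8.77 at day 6 did not pass the test. Day 13 stood 14.4-fold over day 2. paxillus_7617 was dim until day 13. It read 6.15, 7.09 and 6.73 at day 2, 5.52, 6.03 and 5.73 at day 6, 6.26, 6.10 and 6.54 at day 8, and 9.84, 9.67 and 10.21 at day 13. Its day 6 values lie below those of day 2, its day 8 values overlap them, and day 13 was 9.53-fold over day 2. paxillus_7617 was less than 2-fold above the random-sequence control on day 6 array 1 alone (5.52 against 4.61). paxillus_13457 was so on every array except day 13 array 1. The other 118 members were at least 2-fold above the control on all 12. So were 11524 of all 12214 sequences.

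In 5 members of this class the mean was already above day 2 at day 8. They are paxillus_1177, paxillus_7808, paxillus_10366, paxillus_11930 and paxillus_13492, named after their values were seen. Day 8 was called above day 2 in the last 4 of these (30.9% of all sequences were). The fall of paxillus_7808 to day 6 did not pass the test. paxillus_13492 read 10.16, 10.37 and 10.01 at day 2, 9.59, 9.38 and 9.93 at day 6, 10.77, 10.74 and 11.61 at day 8, and 12.94, 12.91 and 13.02 at day 13. It climbed at each step after day 6, and no 2 harvests overlap. paxillus_11930 read 10.07, 10.27 and 10.12 at day 2, 9.70, 9.81 and 9.68 at day 6, 10.55, 10.56 and 10.88 at day 8, and 10.80, 11.07 and 10.38 at day 13. Its recovery was complete by day 8, and days 8 and 13 overlap. It is the 1 member in which day 13 was not called above day 8 (119 of 120 were, and 25.8% of all sequences).

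**Figure D5:**
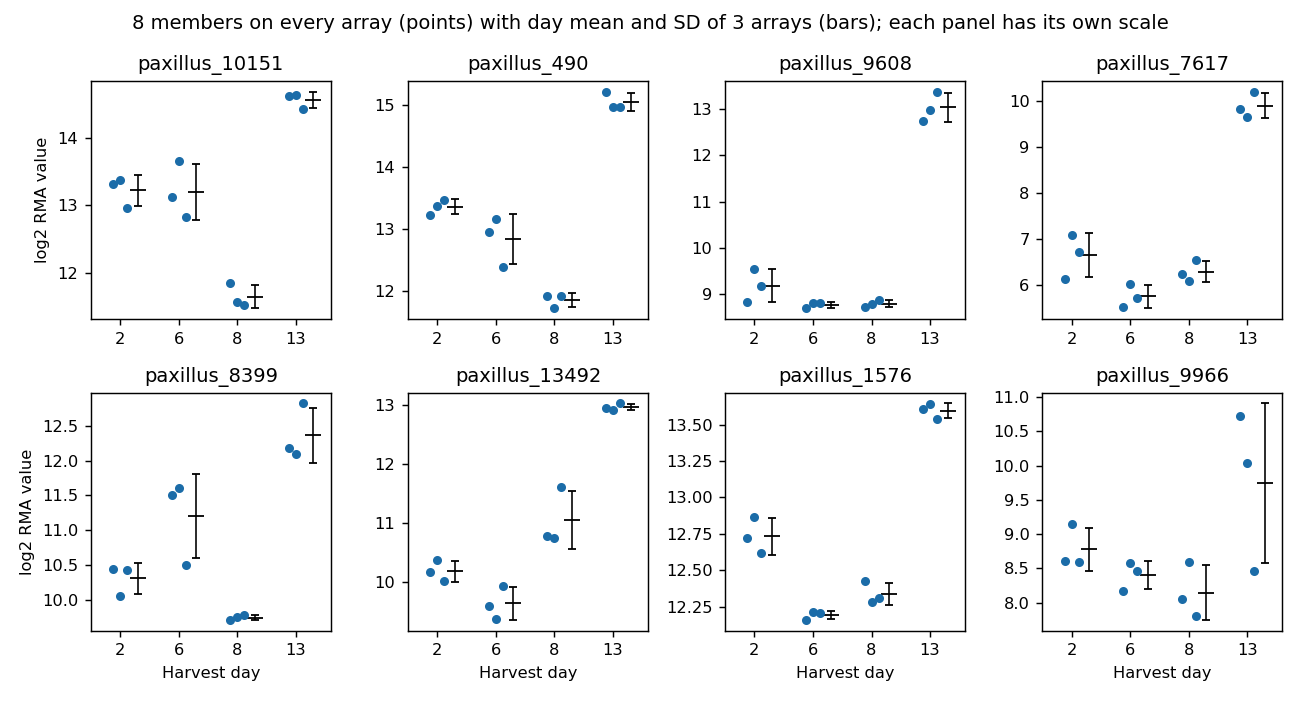
Points are the log2 RMA values of 8 members on each of the 12 arrays, by harvest day, and bars the day mean ± SD of 3 arrays. Each panel has its own scale. paxillus_10151 and paxillus_490 are lowest at day 8. paxillus_9608 and paxillus_7617 stand far higher at day 13 than on any other day. paxillus_8399 is raised at day 6 on 2 of 3 arrays. paxillus_13492 climbs from day 6. paxillus_1576 shows narrow scatter, and paxillus_9966 has 1 day 13 array just below the day 2 arrays.

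At day 6, 57 of 120 members were called lower than day 2 (23.1% of all sequences), and at day 8, 97 (28.5%). These counts change places if the samples of days 6 and 8 are exchanged, and the rule used the same means, so nothing is read from their order. Between days 6 and 8 themselves, 44 members were called lower at day 8 (11.6% of all sequences) and 7 higher (14.3%). Day 6 lay wholly above day 8 in 66 members (26.4% of all sequences) and wholly below it in 21 (29.6%). The rule took the lower of the 2 means, which favours a gap between these days. The median difference of day 8 from day 6 was -0.26 over the members and 0.00 over all sequences. The 51 members called between these days (25.9% of all sequences) became 79 with array weights. The share of all sequences called with array weights was not counted, so nothing is read from this change. Against day 6, day 13 was called higher in 120 members (29.6% of all sequences).

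Levels spanned most of the range of the array. At day 2 the members ran from 5.07 to 14.38 and at day 13 from 5.62 to 15.08. Members above the median of all sequences numbered 54 on day 2, 44 on day 6, 37 on day 8 and 81 on day 13. Of the 200 sequences with the highest means, 1 was a member at day 2 and 9 were at day 13. The highest members were paxillus_391 and paxillus_392.

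paxillus_391 read 14.25, 14.45 and 14.45 at day 2, 13.92, 14.30 and 14.02 at day 6, 13.76, 13.86 and 14.10 at day 8, and 15.20, 15.05 and 15.01 at day 13. Day 6 array 2 overlaps day 2, and day 13 lies apart from all other days. The highest value on any array was 15.6, so paxillus_391 was close to the top of the scale at day 13. paxillus_13457, the dimmest member, read 5.17, 5.26 and 4.77 at day 2, 4.56, 4.48 and 4.92 at day 6, 4.62, 5.45 and 4.77 at day 8, and 5.87, 5.44 and 5.54 at day 13. These values lie near the control. Those of days 2, 6 and 8 overlap, and those of day 13 overlap those of day 8. The fall of paxillus_13457 did not pass the test. With each array left out in turn, it met the rule in 6 of 12 cases, the fewest of all members. All 120 members were measured with 10 probe pairs.

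The median course is met closely by paxillus_4400 and paxillus_4458, the members with the smallest median distance to the others. paxillus_4400 read 9.32, 9.68 and 9.46 at day 2, 9.02, 9.23 and 9.19 at day 6, 9.02, 8.90 and 8.92 at day 8, and 10.23, 10.47 and 10.71 at day 13. It fell 1.45-fold to day 8 and ended 1.98-fold over day 2, and neither day overlaps day 2. In paxillus_4458 the means were 8.56 ± 0.30, 8.16 ± 0.10, 8.10 ± 0.10 and 9.35 ± 0.51, and its fall did not pass the test. paxillus_1576 had nearly the smallest scatter: its means were 12.73 ± 0.13, 12.19 ± 0.03, 12.34 ± 0.08 and 13.59 ± 0.05. paxillus_9488, with the smallest, went from 12.25 ± 0.05 through 11.98 ± 0.09 and 11.84 ± 0.03 to 12.85 ± 0.09. In both, each gap between day 2 and the later days exceeds the scatter within days.

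At the other end, paxillus_9966 read 8.60, 9.14 and 8.59 at day 2, 8.17, 8.57 and 8.46 at day 6, 8.05, 8.59 and 7.80 at day 8, and 10.73, 10.04 and 8.46 at day 13. Its day 13 SD of 1.16 comes from array 3, which lies below all day 2 arrays. Neither its fall nor its excess at day 13 passed the test, and it is the 1 member with neither. Without day 13 array 3 its excess was 1.61 and passed. paxillus_1280 is the other member whose excess at day 13 was not called. It read 7.84, 7.44 and 7.42 at day 2 and 7.20, 8.82 and 8.18 at day 13, which overlap, and its excess was 0.94 and passed without day 13 array 1.

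The members scattered more between arrays of the same day than sequences in general. The median SD over 3 arrays was 0.182 for members and 0.129 for all sequences at day 2, 0.144 and 0.0790 at day 6, 0.103 and 0.0771 at day 8, and 0.170 and 0.139 at day 13. The scatter had a common direction. Day 2 array 2 was the highest of its day in 92 of 120 members and in 43.2% of all sequences. Day 6 array 2 was the highest in 78 members (34.4% of all sequences), day 8 array 3 in 63 (41.2%) and day 13 array 3 in 67 (29.0%).

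After each day's mean was taken off, values of members correlated with each other at a mean r of 0.237 over all pairs, against 0.0101 for pairs of all 12214 sequences. This is a description over 12 arrays and sequences that share them. The rule used day means, and each array enters the mean of its own day. A high or low array on any of the days can therefore bring sequences in, and the choice is not independent of these deviations. Without day 2 array 2 the rule gave 95 members, of which 83 were among the 120. Without day 2 array 1 it gave 133, with 106 of the 120. The part of single arrays in the choice of members was not tested further.

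Some members may be repeats of one sequence or gene, which the files do not say. The numbers of 14 members form 7 consecutive pairs. In 5 of these pairs the 12 values correlated at r of at least 0.95 with mean levels within 1 of each other, and counting each such pair once leaves 115. paxillus_6560 and paxillus_6561 correlated at r = 0.998. paxillus_6560 read 11.26, 12.23 and 11.76 at day 2, 11.20, 11.60 and 11.66 at day 6, 10.82, 10.86 and 11.28 at day 8, and 14.47, 14.36 and 14.62 at day 13, and paxillus_6561 followed it 0.31 lower on the mean. Days 2, 6 and 8 overlap in part, and day 13 lies far above, 6.64-fold and 6.54-fold over day 2.

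paxillus_4862 and paxillus_4863 fell and rose together, with r = 0.997. Their values differ by 1.71 on average, but not by the same amount on each day. The means of paxillus_4862 were 12.16 ± 0.23, 12.13 ± 0.32, 11.58 ± 0.01 and 13.92 ± 0.32, and those of paxillus_4863 10.23 ± 0.34, 10.10 ± 0.37, 9.28 ± 0.09 and 13.35 ± 0.40. The excess at day 13 was 3.39-fold in the brighter and 8.69-fold in the dimmer of them. paxillus_489 and paxillus_490 fell alike to day 8, by 1.48 and 1.51, but ended 0.72 and 1.69 above day 2. In paxillus_1172 and paxillus_1173 the excess was 0.87 and 1.67. The remaining pairs, paxillus_391 with paxillus_392, paxillus_5096 with paxillus_5097, and paxillus_5624 with paxillus_5625, were closer, with an excess of 0.70 and 0.88, 1.01 and 0.84, and 0.92 and 0.92.

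Of the 208 non-members with a number next to a member's, 41 had a mean below day 2 at a middle day and above it at day 13, and 4 met the same limits of likeness to a member. The share of all sequences with such means is not given here, so nothing is read from the 41. Over the whole numbering the members were spread evenly, with 31, 28, 30 and 31 in 4 successive stretches of 3053 or 3054 sequences.

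The limits of the rule run through a continuous cloud. Just inside the limit on the fall were paxillus_10494, from 9.27 ± 0.18 to 8.87 ± 0.06 at day 6, and paxillus_803, from 10.87 ± 0.12 to 10.47 ± 0.10. Just outside it were paxillus_8332, from 13.01 ± 0.17 to 12.62 ± 0.06 at day 8, and paxillus_4176, from 11.82 ± 0.15 to 11.42 ± 0.07. On the excess at day 13, paxillus_1280 and paxillus_6017 lay just inside, with means of 8.07 ± 0.82 and 10.62 ± 0.06 at day 13, and paxillus_10940 and paxillus_10436 just outside, with 11.79 ± 0.07 and 10.86 ± 0.23. The standard error of a difference between days had a median of 0.13 over the members, so members and their nearest neighbours across a limit are not told apart by their values. When each array was left out in turn, 65 of the 120 met the rule in all 12 cases, and 15 failed it in 3 or more.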

How the data were processed

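The deposited values are log2 expression values that the authors obtained by RMA, as stated in the submitters' processing notes. Its version is not given in the sources used here, and the base of the log was taken from the range, 2.81 to 15.6. The number of probe pairs per sequence, another deposited column, was read as listed. The series-wide table differed from the per-array values by at most 0. The column of standard errors was not used.

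Day means are over 3 arrays. Differences were fitted over all 12 arrays and 12214 sequences with limma 3.58.1 (R 4.3.3, lmFit, contrasts.fit, eBayes), without a replicate block, with Benjamini-Hochberg adjustment within each comparison and a threshold of 0.05. The fit was also run on simulated data with known changes. Their scatter was drawn independently for each sequence and array, unlike that of the members, so nothing about the members is read from that run. The control feature was left out, and no filter on dim sequences was applied. With 3 arrays a day, their number limits precision.

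The members, classes and tests were chosen with earlier results of these data known. Named sequences are the members with the largest changes in each direction, the highest and lowest levels, the largest and smallest scatter, the most typical courses, consecutive numbers and the edges of the rule. Others were named after their values were seen. Each day fills a consecutive block of array numbers, so chip position and day cannot be told apart.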

Additional observations from a re-analysis of the deposited data

How the results depend on the processing

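The number of members followed the limits: 210 at 0.3 and 0.4, 73 at 0.5 and 0.6, and 7 at 1 and 1. Median centring gave 126 and included all 120, quantile normalization 132 with 115 of the 120, day medians 128 with 101, and leaving out an array 95 to 133. Testing against a 1.5-fold minimum with limma treat left 1 member lower at day 6, 11 lower at day 8, 60 higher at day 13 than at day 2, 0 called between days 8 and 6 (18 at an unadjusted p under 0.05) and 4 with all 3 differences, by construction. At a threshold of 0.01, 34 were called lower at day 6 and 31 between days 8 and 6. At 0.05, array weights gave 79 between days 8 and 6 in place of 51, and the cause was not tested. Under the altered tests of this section only members were counted, not all sequences. These counts are therefore not read as a result about the members. With days 6 and 8 exchanged, 97 were lower at day 6, 57 at day 8 and 89 lowest at day 6. Leaving out an array gave 39 to 68 lower at day 6, 84 to 100 lower at day 8, 117 to 118 higher at day 13 than at day 2, 119 to 120 than at day 6 and 118 to 119 than at day 8, 36 to 59 between days 8 and 6, 91 to 113 with all 3 differences, 29 to 34 lowest at day 6, a median excess of 0.89 to 1.05 and a median fall of 0.51 to 0.62. Of 18 pairs of arrays with the same number on different days, 5 had deviations correlated over 0.1. The values ran from -0.30 to 0.63, the highest for array 2 of days 2 and 13. Whether arrays of the same number are linked across days was not tested. With the replicate number as a block, 63 were lower at day 6, 100 at day 8 and 114 had all 3 differences; the excess of paxillus_9966 then passed (limma adjusted p = 0.04), and no other call changed among the differences for which members were named; their other differences were not recomputed singly. Of 560 values for these differences under these alternatives, none reversed; 6 lost their call, 3 each for paxillus_13457 at day 13 and paxillus_10494 at day 6, all with 1 array left out.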
